A study of Mus musculus with 24 samples.

Results

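The genes described here are 10 genes of the mural cell and platelet-derived growth factor (PDGF) system in the left ventricle (LV) of old mice. They are the 4 PDGF ligands (Pdgfa, Pdgfb, Pdgfc and Pdgfd), the 2 PDGF receptors (Pdgfra and Pdgfrb) and 4 genes commonly used to mark pericytes (Rgs5, Cspg4, Mcam and Notch3). They were taken by symbol from the 24958 named genes of the deposited table, and all 10 were found and passed the filter on low values. The study asked how aged female hearts respond to Angiotensin II (AngII), with and without ovaries. Bulk mRNA of the LV was sequenced in 24 libraries, and the mice were 24 months old in all 6 groups of 4 libraries. Ovx + AngII females were gonadectomized at 12 months and infused with AngII over the last 4 weeks, and Ctrl + AngII females kept their ovaries and had the same infusion. Ovx females were gonadectomized at 12 months without AngII. Male Gx mice were males gonadectomized at 12 months without AngII, male Ctrl mice were intact males, and Ctrl mice were intact females without AngII. Each library was made from RNA of a pair of mice, the mice without AngII carried no vehicle pump, and 1 old mouse given AngII was sacrificed early, so that n counts pools and not mice.

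Pericytes are the mural cells wrapped around capillaries, and in the heart they are abundant next to the endothelium. Endothelial cells release PDGF-B, which acts on the receptor PDGFR-beta of pericytes and vascular smooth muscle cells and holds them at the vessel. PDGF-A and PDGF-C act mainly on PDGFR-alpha, which in the heart is carried by fibroblasts, and PDGF-D acts on PDGFR-beta. In bulk tissue, fewer cells of a type and less RNA per cell cannot be told apart.

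The values of a library summed to between 19358943 and 25889811. The authors give a range of read depth for the LV libraries, and the depth of each single library was inferred from its low values above 0. Relative to the median library it ran from 0.452 (Ctrl + AngII library 40) to 1.88 (Ctrl library 38). Values below are the deposited normalized values put on 1 scale by a median-of-ratios factor (0.889 to 1.15). This step bears on every direction given here, since the median log2 difference of all genes as deposited was −0.28 for Ctrl + AngII against Ctrl and −0.36 for male Ctrl against Ctrl. The libraries held cardiomyocyte RNA in plenty, with Myh6 at 727467 to 966633, and all 12 endothelial and all 12 other pericyte markers looked at were above 0 in every library. Of 5 atrial markers, Sln was at 0 in 15 of the 24 libraries, Myl7 in 4 and Bmp10 in 1, while Myl4 (33.9 to 78.2) and Nppa (1424 to 24730) were above 0 in all 24. Genes are said to have risen or fallen at an adjusted p of at most 0.05 in limma. Shares of all genes called are those of the rescaled values, also where counts from other scalings or fits stand beside them.

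Per kilobase of annotated exon, Rgs5 stood far above the other members. Rgs5, a regulator of G-protein signalling found in pericytes and smooth muscle, averaged 3614 units per kb over the 24 libraries (range 3172 to 4237). The order then ran through Pdgfrb (516 per kb, 418 to 592), Mcam (516 per kb, 384 to 717), Pdgfb (353 per kb, 297 to 412) and Notch3 (272 per kb, 218 to 326), each overlapping its neighbour. Lower levels per kb were found for Pdgfd (160, range 121 to 218), Pdgfra (138, 107 to 170), Pdgfa (123, 88.1 to 156) and Cspg4 (96.4, 57.3 to 145), which also overlapped one another in that order. Pdgfc was the lowest at 15.7 per kb (5.40 to 25.6), and its range touched none of the others. Rgs5 and Pdgfc were thus the members of the 10 whose 24 values overlapped those of no neighbour in the order. The receptors differed in the same units, Pdgfrb lying above Pdgfra in all 24 libraries.

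**Figure D1:**
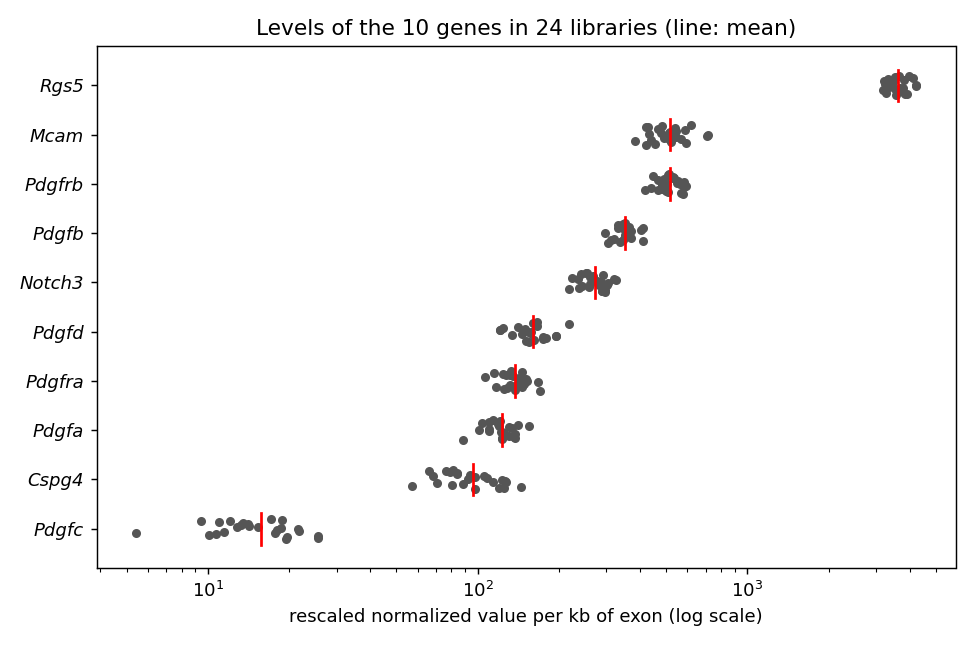
Rescaled normalized value per kilobase of exon (log axis) for each of the 10 genes, with a point for each of the 24 libraries and a line at the mean. Rgs5 lies between 3172 and 4237, Pdgfc between 5.40 and 25.6, and the other 8 genes lie between them with overlapping neighbours.

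The promoter sequences of 3 genes that rose with AngII in control females (below) are shown so that the letters before the starts of genes called in the same comparison can be compared. They are the bases before the RefSeq start (GRCm38.p6), cut where the GENCODE gene begins, at chr9:56864854-56865032 (plus) for Cspg4, chr17:32166891-32167140 (minus) for Notch3 and chr3:81036166-81036415 (plus) for Pdgfc. Capitals mark matches on either strand to the GC box GGGCGG, the TEAD core GGAATG and the CArG box of serum response factor.
Cspg4: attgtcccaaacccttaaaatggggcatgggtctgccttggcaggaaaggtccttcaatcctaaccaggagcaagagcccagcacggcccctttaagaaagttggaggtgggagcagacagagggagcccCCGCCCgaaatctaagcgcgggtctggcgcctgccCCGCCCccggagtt
Notch3: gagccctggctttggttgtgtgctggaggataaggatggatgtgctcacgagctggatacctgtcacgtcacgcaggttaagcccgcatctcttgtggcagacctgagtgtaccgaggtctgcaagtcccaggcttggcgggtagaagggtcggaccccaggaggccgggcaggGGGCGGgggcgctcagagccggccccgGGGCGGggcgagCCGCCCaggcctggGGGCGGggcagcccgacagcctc
Pdgfc: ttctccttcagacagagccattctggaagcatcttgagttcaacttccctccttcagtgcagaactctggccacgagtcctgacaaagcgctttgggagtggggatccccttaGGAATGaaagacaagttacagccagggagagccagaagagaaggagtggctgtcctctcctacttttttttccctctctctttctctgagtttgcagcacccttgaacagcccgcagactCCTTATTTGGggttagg

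RefSeq promoters were matched for 8 of the 10 members, and 5 motifs were searched on both strands of the 250 bases before the start. Pdgfb and Pdgfrb had no matched promoter, so Pdgfrb, which also rose with AngII in control females, is not among those shown. Among all 32851 promoters of that length, 32.7% held a GC box, 21.6% the RBPJ core TGGGAA, 12.6% the TEAD core, 6.75% the AP-1 motif TGANTCA and 1.47% a CArG box. Cspg4 held 2 GC boxes and Notch3 held 4, with no match to the other motifs, and Mcam held 5. Only 61 bases of the Mcam window come before the GENCODE gene, and its 5 boxes lie inside that gene. Pdgfc held no GC box, 1 TEAD core 137 bases before the start and 1 CArG box 17 bases before it. Pdgfd held 1 RBPJ core, 56 bases before the start. Pdgfa, with 2 starts in the table, held 1 RBPJ core 13 bases before one of them and 3 GC boxes over both. Both Pdgfa windows lie inside the longer GENCODE gene. Rgs5 and Pdgfra held none of the 5 motifs. No match of one motif overlapped a match of another. These matches describe letters and not sites of binding.

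The loci are spread over the genome. In GENCODE M21 on GRCm38 (mm10), Rgs5 lies at chr1:169655501-169695813 on the plus strand, Pdgfc at chr3:81036416-81214040 (plus), Pdgfra at chr5:75152292-75198215 (plus) and Pdgfa at chr5:138976014-138997370 (minus). Chromosome 9 holds Pdgfd at chr9:6168584-6378850, Mcam at chr9:44134469-44142727 and Cspg4 at chr9:56865033-56899870, all on the plus strand. Pdgfb lies at chr15:79995874-80014977 (minus), Notch3 at chr17:32120820-32166852 (minus) and Pdgfrb at chr18:61045150-61085061 (plus).

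AngII in control females was accompanied by higher Cspg4, Notch3, Pdgfrb and Pdgfc, and the other 6 members did not pass the test. In limma over 13816 genes, 4 of the 10 members rose and 0 fell, where 4.80% of all genes rose and 3.37% fell (8.17% called in either direction). On the values as deposited, where the median of all genes was lower, 2 members passed upwards (Cspg4 and Pdgfc) and 4 downwards. The shares above belong to the rescaled values and are no background for these 2 counts. The median log2 difference was 0.07 over the 10 members and −0.0052 over all genes. Only Pdgfc reached a log2 fold change of 1, which 1.19% of genes did with an adjusted p of at most 0.05.

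Cspg4 encodes the NG2 proteoglycan on the surface of pericytes and binds PDGF-AA. Its 4 Ctrl + AngII libraries had 1172, 1427, 1494 and 1728, against 683, 962, 1056 and 845 in Ctrl. Every Ctrl + AngII library was above every Ctrl library, as in 12.8% of all genes in either direction. The means were 1455 ± 229 in Ctrl + AngII and 887 ± 161 in Ctrl (SD, n = 4 each), a log2 fold change of 0.72 (SE 0.12, adjusted p = 6.59e-04, exact permutation p = 0.0286, the smallest that 4 against 4 libraries can give). Only 1.06% of genes had a lower p in that comparison. The call held without any 1 library (adjusted p up to 0.00377).

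Notch3 encodes the Notch receptor of mural cells, which keeps smooth muscle cells and pericytes in their mature state. It read 2403, 2345, 2340 and 2405 in Ctrl + AngII, against 1763, 1916, 2099 and 1981 in Ctrl. The treated libraries lay within a narrow band above all control libraries. Means of 2373 ± 35.3 in Ctrl + AngII and 1940 ± 140 in Ctrl (SD, n = 4 each) gave a log2 fold change of 0.29 (SE 0.07, adjusted p = 0.00972, exact permutation p = 0.0286), which was 0.02 on the values as deposited, where the median of all genes was −0.28.

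Pdgfrb, the receptor for PDGF-B and PDGF-D, read 3159, 3109, 2788 and 2730 in Ctrl + AngII, against 2292, 2546, 2635 and 2399 in Ctrl. The groups did not overlap, and the gap between the nearest libraries was small. Averages were 2946 ± 219 in Ctrl + AngII and 2468 ± 152 in Ctrl (SD, n = 4 each), with a log2 fold change of 0.25 (SE 0.07, adjusted p = 0.0351, exact permutation p = 0.0286) that turned to −0.021 on the values as deposited. This call sits near the threshold. The adjusted p in limma was 0.122 without Ctrl library 37, 0.0526 without 38, 0.0792 without 51, 0.113 without Ctrl + AngII library 40 and 0.0856 without 41.

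Pdgfc, a ligand of PDGFR-alpha secreted in a latent form and cut open by proteases, had the largest fold change of the 10. It read 98.8, 130, 100 and 130 in Ctrl + AngII, against 51.3, 54.6, 90.6 and 27.5 in Ctrl. No treated library fell below a control library, although Ctrl library 39 came close. Means were 115 ± 17.9 in Ctrl + AngII and 56.0 ± 26.1 in Ctrl (SD, n = 4 each), a log2 fold change of 1.13 (SE 0.28, 95% interval 0.55 to 1.71, adjusted p = 0.0156, exact permutation p = 0.0286). Without the libraries numbered 49 to 54, 1 in each group, Pdgfc had a log2 fold change of 0.77 (adjusted p = 0.162), and the calls of Pdgfrb (adjusted p = 0.119) and Notch3 (adjusted p = 0.0644) were also lost in limma, which left Cspg4 alone of the 4. With these libraries kept and given a term of their own in the fit, all 4 calls held (adjusted p from 8.51e-04 to 0.0400 in limma).

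**Figure D2:**
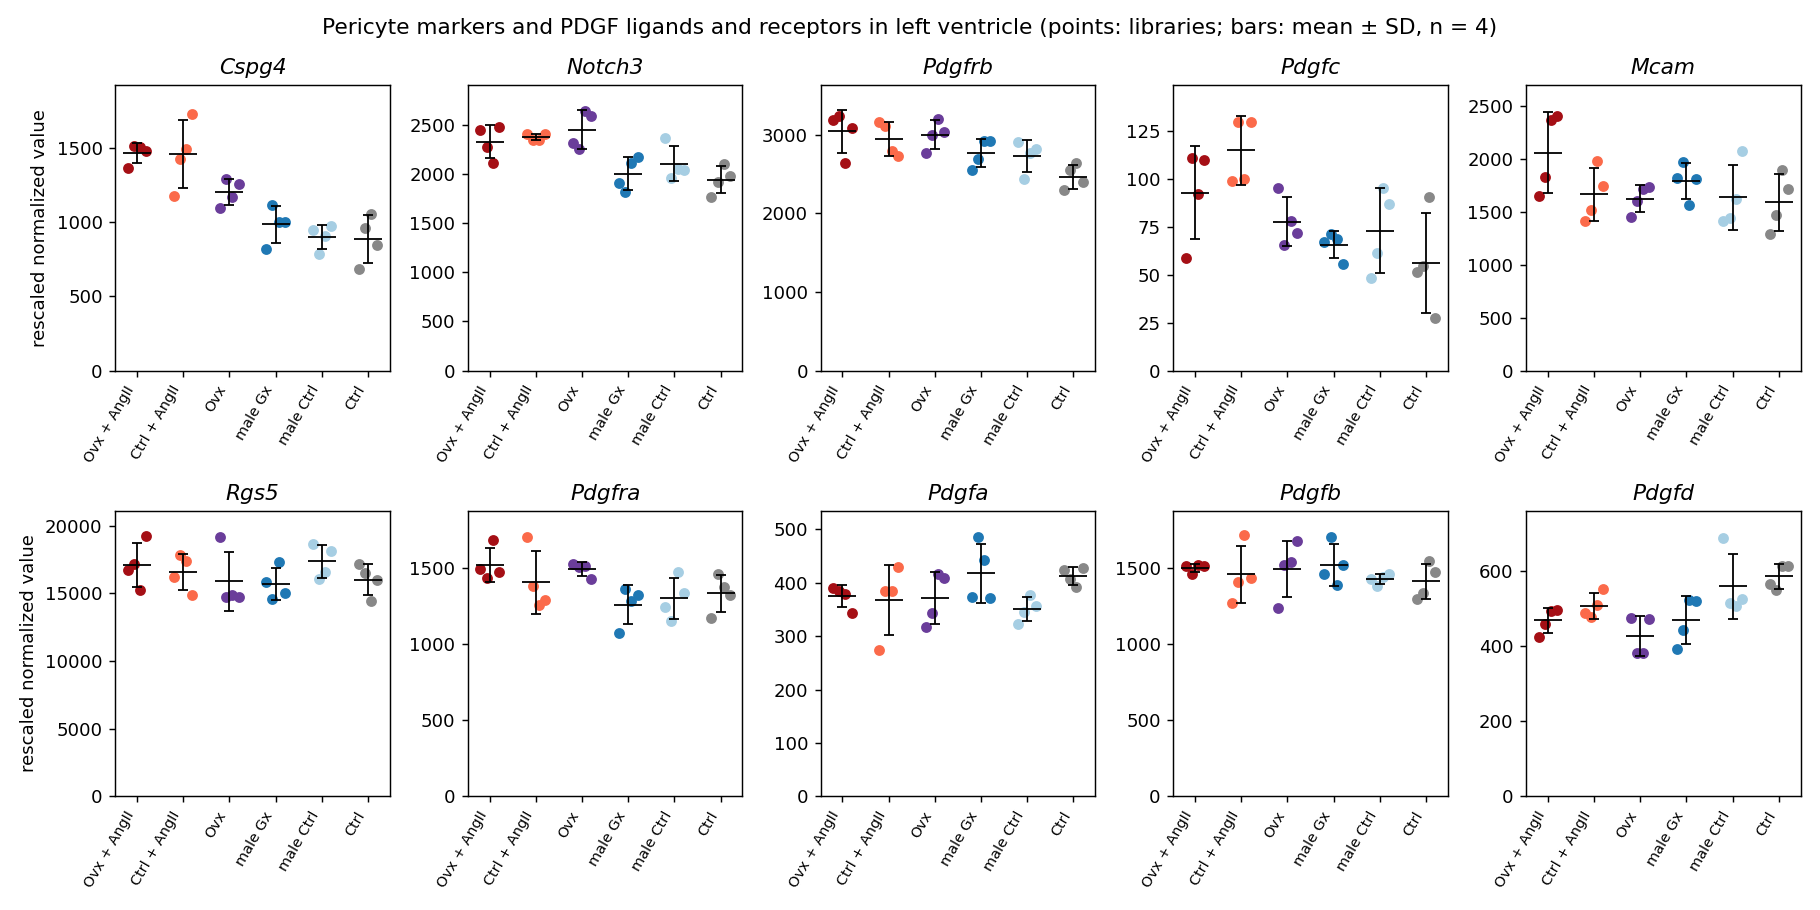
Rescaled normalized value (y axis from 0) of each gene in 6 groups, with a point per library and bars for mean ± SD of 4 libraries. In Cspg4, Notch3, Pdgfrb and Pdgfc the Ctrl + AngII libraries all lie above the Ctrl libraries on this scale (as deposited, Pdgfrb had a log2 fold change of −0.021), and Rgs5 spans 14421 to 19260 over all groups.

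The remaining ligands and receptors showed no call. Pdgfra, the receptor that marks fibroblasts, had 1703, 1378, 1254 and 1286 in Ctrl + AngII, against 1171, 1460, 1375 and 1318 in Ctrl, and the groups overlapped. Its log2 difference was 0.07 (95% interval −0.11 to 0.25, adjusted p = 0.696). Pdgfb, the endothelial ligand of pericytes, averaged 1457 ± 186 in Ctrl + AngII and 1411 ± 116 in Ctrl (log2 difference 0.04, adjusted p = 0.848). Pdgfa averaged 368 ± 65.7 in Ctrl + AngII and 413 ± 16.4 in Ctrl, with a log2 difference of −0.18 (adjusted p = 0.403). Pdgfd averaged 507 ± 33.5 in Ctrl + AngII and 587 ± 33.3 in Ctrl, and its log2 difference of −0.21 had an interval of −0.40 to −0.02 before adjustment (adjusted p = 0.181). Of the ligands, then, 1 of 4 rose, and Pdgfb had an interval of −0.15 to 0.23.

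Rgs5 and Mcam, the other pericyte markers among the 10, did not pass either. Rgs5 read 16238, 17793, 17405 and 14890 in Ctrl + AngII, against 17142, 16478, 14421 and 16004 in Ctrl. The groups overlapped throughout, and the log2 difference of 0.05 had a 95% interval of −0.14 to 0.24 (adjusted p = 0.802). Mcam, the adhesion molecule CD146 of pericytes and endothelium, averaged 1665 ± 251 in Ctrl + AngII and 1591 ± 270 in Ctrl (log2 difference 0.07, interval −0.21 to 0.35, adjusted p = 0.818). The 4 pericyte markers thus split into 2 that rose and 2 that missed the threshold.

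Of a further 12 pericyte markers, 0 rose and 1 fell in Ctrl + AngII against Ctrl (0 and 5 as deposited), a share near the 8.17% of all genes called there, with a median log2 difference of −0.09 beside −0.0052 over all genes. The gene that fell was Abcc9, which encodes the SUR2 subunit of ATP-sensitive potassium channels and is also expressed by cardiomyocytes. It averaged 9572 ± 921 in Ctrl + AngII and 12796 ± 747 in Ctrl (SD, n = 4 each), a log2 fold change of −0.42 (SE 0.08, adjusted p = 0.00191). The summed level of the 12 ran from 19477 to 21358 in Ctrl + AngII and from 22070 to 24688 in Ctrl, and Abcc9 made up a large part of it.

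Genes that process PDGFs or bind beside their receptors included 4 that rose. These 4 were among 9 such genes, of which 0 fell, with a median log2 difference of 0.31 (3 higher and 2 lower as deposited). Pdgfrl, a gene with similarity to the PDGF receptors, averaged 133 ± 40.1 in Ctrl + AngII and 51.6 ± 23.3 in Ctrl (log2 fold change 1.44, adjusted p = 0.00334). Lrp1, a large endocytic receptor that associates with PDGFR-beta, averaged 12042 ± 1196 in Ctrl + AngII and 7744 ± 1099 in Ctrl (0.64, adjusted p = 1.43e-04). Sparc, a matrix protein that binds PDGF, rose by 0.63 (adjusted p = 3.44e-04). Pcsk5, a proprotein convertase, rose by 0.62 (adjusted p = 0.0355), a call lost as deposited (0.35, adjusted p = 0.106 in limma). With the libraries scaled to the same sum, Pcsk5 passed (0.62, adjusted p = 0.0393 in limma). Of 20 adaptors, kinases and phosphatases downstream of the receptors, 1 rose and 1 fell (0 and 11 as deposited), again a share near the 8.17% of all genes. The gene that rose was Ptpn11, the phosphatase SHP2, with a log2 fold change of 0.39 (adjusted p = 0.00744, lost as deposited with adjusted p = 0.268). The gene that fell was Pik3r1, a regulatory subunit of PI3-kinase, with −0.31 (adjusted p = 0.0440). Scaled to the same sum, Ptpn11 and Pik3r1 passed in limma (adjusted p = 0.00398 and 0.0271). None of 13 Notch ligands, receptors and targets and none of 4 angiopoietin and Tie genes passed in limma (2 and 1 at an unadjusted p under 0.05), while 10 and 3 were lower as deposited.

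Markers of other cell types moved in the same comparison. Of 12 smooth muscle markers, 4 rose and 0 fell (2 and 2 as deposited, 2 and 0 with equal library sums), led by Cnn1 (log2 fold change 1.24, adjusted p = 0.00593) and Tagln (0.68, adjusted p = 0.00871), both contractile-filament genes. The summed smooth muscle level ran from 19238 to 22519 in Ctrl + AngII and from 17502 to 18971 in Ctrl. Of 10 fibroblast markers 7 rose (3 as deposited, 5 with equal sums), and their sum ran from 35436 to 47605 in Ctrl + AngII and from 26387 to 33319 in Ctrl. Of 10 activated fibroblast markers 9 rose, with a median log2 difference of 2.76. No endothelial marker of 12 passed in limma (0 at an unadjusted p under 0.05, and 8 lower as deposited), and the endothelial sum ran from 36978 to 45416 in Ctrl + AngII and from 38727 to 44425 in Ctrl. Of 10 macrophage markers 1 rose, the complement gene C1qa (0.44, adjusted p = 0.0416), and 0 fell (0 rose as deposited or with equal sums). Of 9 cardiomyocyte markers Actn2 rose (0.26, adjusted p = 0.0155), while Tnni3 (−0.27, adjusted p = 0.0379) and Pln (−0.37, adjusted p = 0.00379) fell, against 0 higher and 7 lower as deposited. The part of smooth muscle, fibroblast and macrophage RNA in the higher Cspg4, Notch3, Pdgfrb and Pdgfc was not tested.

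In Ovx females, no member passed the test with AngII. In limma, 0 of 10 members were called in Ovx + AngII against Ovx, where 10.2% of all genes were called, and 2 members (Cspg4 and Mcam) had an unadjusted p under 0.05, as did 25.1% of genes. Cspg4 read 1365, 1515, 1503 and 1475 in Ovx + AngII, against 1096, 1292, 1170 and 1259 in Ovx. The groups did not overlap, as in 16.5% of genes, with means of 1464 ± 68.3 in Ovx + AngII and 1204 ± 88.9 in Ovx (log2 difference 0.28, SE 0.12, adjusted p = 0.133). Mcam read 1646, 1826, 2366 and 2402 in Ovx + AngII, against 1448, 1605, 1711 and 1738 in Ovx, so that the groups overlapped (log2 difference 0.33, SE 0.13, adjusted p = 0.128). Leaving out Ovx + AngII library 46 brought Mcam to 0.43 (adjusted p = 0.0486 in limma).

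Notch3, Pdgfrb and Pdgfc did not pass the test in Ovx females. Notch3 averaged 2326 ± 168 in Ovx + AngII and 2449 ± 194 in Ovx (log2 difference −0.07, interval −0.22 to 0.07, adjusted p = 0.545). Pdgfrb averaged 3041 ± 272 in Ovx + AngII and 3001 ± 180 in Ovx (0.02, interval −0.13 to 0.17, adjusted p = 0.926). Pdgfc averaged 92.8 ± 24.3 in Ovx + AngII and 77.8 ± 12.8 in Ovx (0.22, interval −0.36 to 0.80, adjusted p = 0.683). For the other 5 members the log2 differences lay between 0.02 and 0.14. Rgs5 read 16684, 17155, 15254 and 19260 in Ovx + AngII, against 19139, 14735, 14881 and 14748 in Ovx, where library 43 stood above the rest of its group.

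Among the wider lists in Ovx females, 2 of the 12 other pericyte markers fell and 0 rose (4 and 0 as deposited), where 10.2% of all genes were called in either direction. Abcc9 averaged 9665 ± 985 in Ovx + AngII and 13186 ± 754 in Ovx (log2 fold change −0.45, adjusted p = 9.53e-04). Colec11, a collectin, averaged 398 ± 52.4 in Ovx + AngII and 525 ± 54.2 in Ovx (−0.40, adjusted p = 0.0199). Of the 9 PDGF-processing and co-receptor genes 2 rose (1 as deposited), Sparc (0.58, adjusted p = 6.45e-04) and Plat. Plat, the tissue plasminogen activator that cuts PDGF-C, rose by 0.37 (adjusted p = 0.0268 in limma, 0.0662 as deposited and 0.0326 with equal sums). Of the 20 signalling genes 2 rose, Ptpn11 (0.42, adjusted p = 0.00436) and the adaptor Crk (0.30, adjusted p = 0.00427), and 1 fell, the docking protein Gab1 (−0.29, adjusted p = 0.0192), against 2 and 4 as deposited, so that 3 of 20 were called beside 10.2% of all genes. Smooth muscle markers had a median log2 difference of −0.34 with 1 of 12 higher (Cald1) and 1 lower (Lmod1), against 0 and 4 as deposited (Cald1 adjusted p = 0.0834). With equal sums Cald1 and Lmod1 passed in limma (adjusted p = 0.0268 and 0.0466). The smooth muscle sum ran from 16985 to 19053 in Ovx + AngII and from 18299 to 21258 in Ovx. Of 10 fibroblast markers 3 rose and 0 fell, with a sum of 36386 to 39109 in Ovx + AngII and 30446 to 33527 in Ovx. Of 10 activated fibroblast markers 9 rose and 0 fell, with a median log2 difference of 2.08. Of 9 cardiomyocyte markers 0 rose and 2 fell, Tnni3 and Pln (0 and 4 as deposited).

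**Figure D3:**
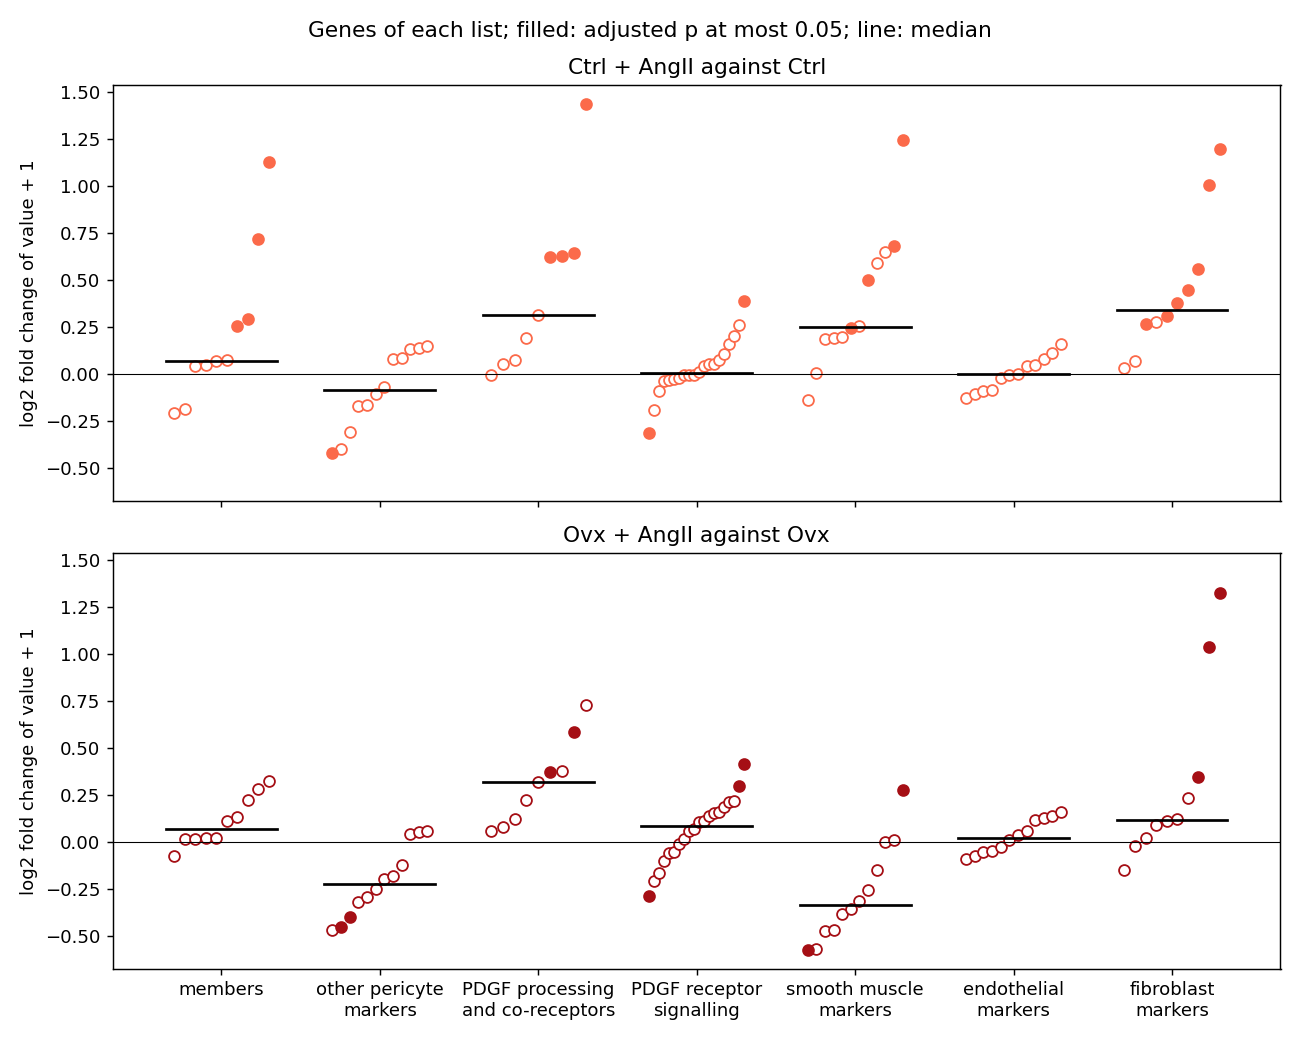
Log2 fold change of each gene (y axis) by list (x axis), above for Ctrl + AngII against Ctrl and below for Ovx + AngII against Ovx, with filled points past an adjusted p of 0.05 and a line at the median. In Ctrl, 4 of 10 members are filled, and in Ovx none, while Abcc9 lies at −0.42 and −0.45 among the other pericyte markers.

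The response to AngII was not shown to differ between Ovx and control females for any member on the rescaled values, while on the values as deposited Pdgfd passed in limma (0.54, adjusted p = 0.0248). The difference of the AngII effects, Ovx minus Ctrl, called 0 of 10 members in limma and 0.0579% of all genes. At an unadjusted p under 0.05 there were 5 members, beside 10.4% of all genes. Notch3 came nearest, with a difference of −0.37 (SE 0.10, adjusted p = 0.153), and 0.709% of genes had a lower p. The others were Cspg4 (−0.44, adjusted p = 0.360), Pdgfd (0.35, adjusted p = 0.353), Pdgfrb (−0.24, adjusted p = 0.418) and Pdgfc (−0.91, adjusted p = 0.423).

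Between Ovx and Ctrl females, both without AngII, no member passed the test. In Ovx against Ctrl 0 of 10 members were called in limma, where 0.109% of genes were, and 4 had an unadjusted p under 0.05 (12.4% of genes did). Those 4, Notch3, Pdgfd, Pdgfrb and Cspg4, were also the members whose libraries did not overlap between the groups, which held for 6.01% of genes. This comparison shares its Ctrl libraries with that of Ctrl + AngII against Ctrl, so the 2 sets of values are not independent.

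Pdgfd, the PDGFR-beta ligand activated by proteolysis, read 476, 382, 382 and 473 in Ovx, against 565, 551, 615 and 615 in Ctrl. All Ovx libraries lay below all Ctrl libraries. The log2 difference was −0.46 (SE 0.09, adjusted p = 0.0585, exact permutation p = 0.0286). Notch3 read 2314, 2251, 2639 and 2591 in Ovx, against 1763, 1916, 2099 and 1981 in Ctrl, a log2 difference of 0.34 (SE 0.07, adjusted p = 0.0585). Pdgfrb averaged 3001 ± 180 in Ovx and 2468 ± 152 in Ctrl (0.28, adjusted p = 0.116), and Cspg4 1204 ± 88.9 in Ovx and 887 ± 161 in Ctrl (0.46, adjusted p = 0.116). These 4 passed in limma without Ovx library 43 (adjusted p from 0.0108 to 0.0418) and with library quality weights (0.0152 to 0.0303), and 3 of them without Ctrl library 39. Over all fits with a single library left out, the adjusted p in limma ran up to 0.187 for Pdgfd and Notch3, 0.322 for Pdgfrb and 0.324 for Cspg4. The share of all genes called in those fits is not given here, and that of the main fit does not apply to them. In the main fit of Ovx against Ctrl, smooth muscle markers had a median of 0.39 with 0 of 12 called (7 at an unadjusted p under 0.05). Erythroid markers had a median of −1.38 with 0 of 5 called (4 unadjusted). Their part in the members' values was not tested.

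With AngII in both groups, no member passed the test between ovariectomized and control hearts. In Ovx + AngII against Ctrl + AngII limma called 0 of 10, where 1.01% of genes were called, and 1 member had an unadjusted p under 0.05 (11.5% of genes did). That was Mcam, at 2060 ± 381 in Ovx + AngII and 1665 ± 251 in Ctrl + AngII (log2 difference 0.30, adjusted p = 0.389). Cspg4 averaged 1464 ± 68.3 in Ovx + AngII and 1455 ± 229 in Ctrl + AngII (0.02, interval −0.22 to 0.27). Pdgfrb differed by 0.04 (−0.11 to 0.20) and Notch3 by −0.03 (−0.17 to 0.11).

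**Figure D4:**
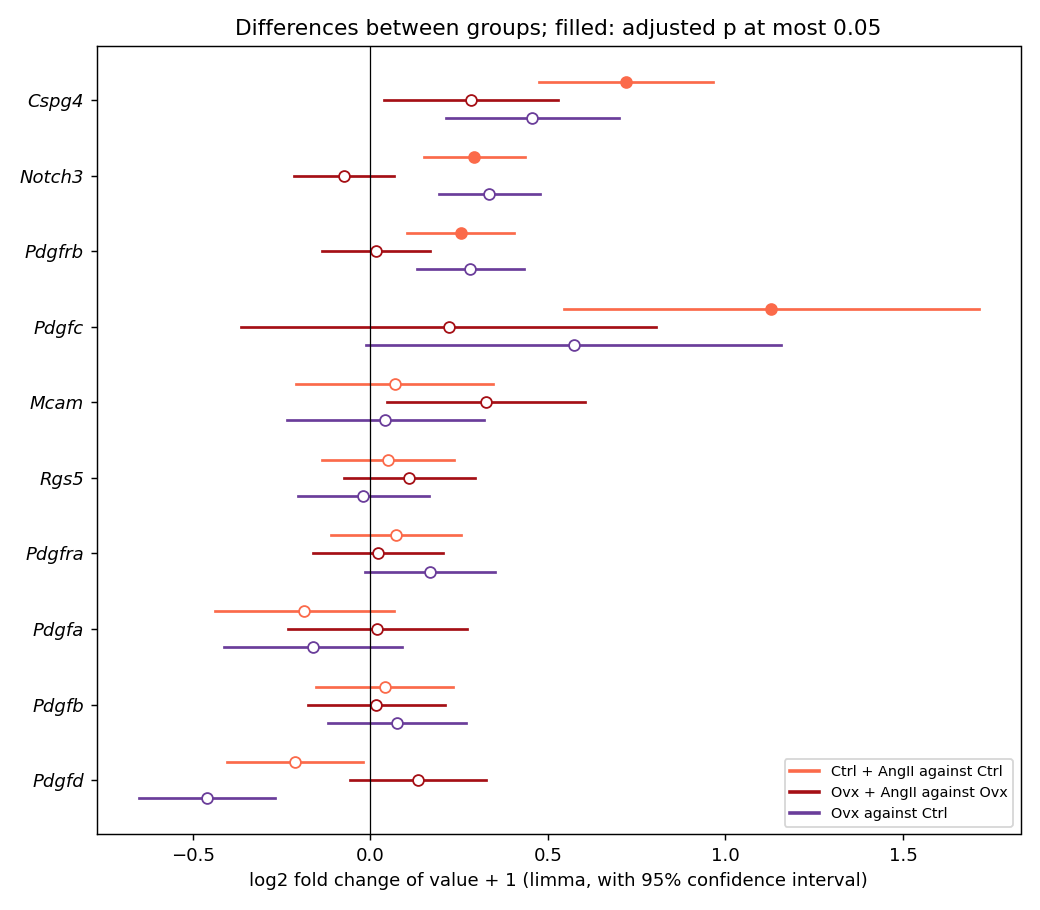
Log2 fold change with 95% confidence interval (x axis) for each gene in 3 comparisons, with filled points past an adjusted p of 0.05. Filled points are Cspg4 (0.72), Notch3 (0.29), Pdgfrb (0.25, which was −0.021 on the values as deposited) and Pdgfc (1.13), all in Ctrl + AngII against Ctrl.

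Gonadectomy in males moved no member past the threshold. In male Gx against male Ctrl limma called 0 of 10, where 0.0797% of 13799 genes were called, and 2 members had an unadjusted p under 0.05, beside 8.54% of genes. Pdgfa read 374, 485, 442 and 371 in male Gx, against 323, 345, 377 and 357 in male Ctrl (log2 difference 0.25, adjusted p = 0.572), and the groups overlapped. Pdgfd averaged 470 ± 64.2 in male Gx and 560 ± 86.5 in male Ctrl (−0.25, adjusted p = 0.512), and 1 male Ctrl library stood at 689. Anpep, the aminopeptidase CD13 of pericytes, was the 1 other pericyte marker of 12 that rose, at 722 ± 44.7 in male Gx and 503 ± 66.5 in male Ctrl (log2 fold change 0.53, adjusted p = 0.0244).

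Between intact males and females no member was called. In male Ctrl against Ctrl limma called 0 of 10, where 1.20% of genes were called, and 0 had an unadjusted p under 0.05 (12.9% of genes did). Pdgfa came nearest, at 323, 345, 377 and 357 in male Ctrl, against 424, 408, 392 and 428 in Ctrl. Its groups did not overlap, as in 6.40% of genes (log2 difference −0.24, adjusted p = 0.397). On the values as deposited, where the median of all genes was −0.36, 9 of the 10 passed and were lower in males. The 1.20% above belongs to the rescaled values, and the share of all genes called as deposited is not given here. The difference of the gonadectomy effects, male minus female, called 0 of 10 in limma (0.00725% of genes) with 3 members at an unadjusted p under 0.05, beside 6.07% of genes. Notch3 had −0.41 (SE 0.10, adjusted p = 0.309), Pdgfrb −0.26 (adjusted p = 0.725) and Pdgfa 0.41 (adjusted p = 0.747).

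Across the 24 libraries the members did not vary as 1 block. After centring on the group means, the highest Pearson r among the 45 pairs were 0.68 for Pdgfrb with Notch3 and 0.68 for Pdgfb with Mcam, followed by 0.56 for Cspg4 with Mcam and 0.56 for Pdgfb with Cspg4. Rgs5 stood apart, with r of −0.49 to Pdgfb, −0.33 to Cspg4 and 0.10 to Pdgfrb, and its highest r was 0.24, to Pdgfd. Libraries share 1 normalization, and these values are descriptions over 24 points.

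Of 11924 other genes with a mean of at least 50, the nearest to Pdgfrb was Notch3 (r = 0.808, and 0.681 within groups), and others near it were Farp1 (0.787), Prmt2 (0.786) and Mast4 (0.780). Those near Notch3 included Tnxb (0.823), Pdgfrb (0.808), Flna (0.777) and Mast4 (0.769). Pdgfra was nearest to Smim14 (0.743), Nav1 (0.735), Fam114a1 (0.722), Galnt10 (0.711) and Rab34 (0.706). Rgs5 was nearest to Bbx (0.882), Myo9a (0.859), U2surp (0.826), Dmxl1 (0.819) and Zfp97 (0.819), and none of its 5 was a member. Within groups the r of Rgs5 with Bbx was 0.854 and with Myo9a 0.862.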

How the data were processed

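LV mRNA of 24 libraries was analysed. The authors used STAR on mm10 and then DESeq2 normalization, both run in BaseSpace. Salmon is also named in the submitters' notes, which give no versions. The deposited values are a signal per gene, never negative and not whole; whole reads were not recoverable, so no count model was used. Left out were 14 rows named by dates and 1 unnamed line (0 columns lacked a sample). Values were rescaled by median-of-ratios, and log2(value + 1) was fitted with limma 3.58.1 in R 4.3.3 (trended eBayes) over genes with a mean of at least 10, with Benjamini-Hochberg adjustment. The 16 female libraries were fitted together, and all 24 for male comparisons. The added 1 understates changes of low genes. Exact permutation tests used 70 labelings, two-sided. Scripts were tested on simulated data. Members and lists were chosen with earlier results of these data known. All 10 members are named, and of other lists at most the 4 genes with the largest called change. Likeness was Pearson r over 24 libraries. A gene among the nearest is not reported here. Pseudocounts of 5 and 0.1, filters at 50 and 0, deposited or sum-scaled values, untrended eBayes, library weights, other fits and left-out libraries were tried. Both other scalings of the wider lists and a term for libraries 49 to 54 were added after seeing the data. No source says that libraries of a group are separate animals beyond the pools, so p-values measure the spread between libraries. The authors' own comparison columns were not used.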

Additional observations from a re-analysis of the deposited data

Results flagged for a closer look

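In 60 groups of 4 libraries, 3 members had a library far from the other 3 relative to the range of the 4. This is about the share that chance alone gives, 1 group in 20. Rgs5 stood at 19139 in Ovx library 43, against 14735 to 14881 in the other Ovx libraries. Pdgfd stood at 689 in male Ctrl library 31, against 508 to 525 in the others of its group. Pdgfb stood at 1463 in Ovx + AngII library 47, against 1511 to 1520 in the others, a small gap in a group whose SD was 1.72% of its mean.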

How the results depend on the processing

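No paired analysis was possible because the libraries of different groups share no replicate number. A term for libraries 49 to 54, 1 in each group, was added after seeing the data: it leaves the log2 differences as they were, since the groups are balanced over it, kept the 4 calls in Ctrl + AngII against Ctrl, and let 1 member pass in Ovx against Ctrl (Pdgfd, adjusted p = 0.0479 in limma). Over 80 values of single members, 1710 alternative values were computed: 1591 kept their sign and side of the threshold, 12 lost a call, 21 gained one and 86 changed sign, of which 9 had a pass in either fit. In Ctrl + AngII against Ctrl, 1 of the 4 calls was left without libraries 49 to 54, and 3 to 4 with 1 library left out. In Ovx + AngII against Ovx 1 member passed with only the libraries of those groups, and 0 to 1 with a library left out. In Ovx against Ctrl, 4 passed with library quality weights, 1 as deposited and 0 to 4 with a library left out, and in the difference of the AngII effects 1 passed as deposited (Pdgfd). In male Ctrl against Ctrl 9 passed as deposited. Shares of all genes called in these other fits are not given here, so the counts have no background beside them. The deposited scale shifts the median of all genes, and the cause of the changed counts was not tested.

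Log2 differences that changed sign as deposited were, in Ctrl + AngII against Ctrl, Pdgfb −0.23, Pdgfra −0.20, Pdgfrb −0.021, Rgs5 −0.23 and Mcam −0.21, in Ovx + AngII against Ovx, Pdgfa −0.063, Pdgfb −0.066, Pdgfra −0.061 and Pdgfrb −0.067, in their difference, Pdgfb 0.17 and Pdgfra 0.14, in Ovx against Ctrl, Pdgfb −0.0086 and Mcam −0.041, in Ovx + AngII against Ctrl + AngII, Notch3 0.076, in male Gx against male Ctrl, Pdgfra 0.037 and Notch3 0.013, in male Ctrl against Ctrl, Pdgfb −0.34, Pdgfrb −0.21, Rgs5 −0.24, Cspg4 −0.32, Mcam −0.32 and Notch3 −0.24, and in the difference of the gonadectomy effects, Rgs5 0.042. With library quality weights they were Pdgfra −0.026 (Ctrl + AngII against Ctrl), Pdgfa −0.016 and Pdgfb −0.032 (Ovx + AngII against Ovx), Pdgfra 0.031 (difference of the AngII effects), Pdgfa −0.045 and Cspg4 −0.043 (Ovx + AngII against Ctrl + AngII), Cspg4 −0.0085 (male Ctrl against Ctrl) and Pdgfb −0.066 (difference of the gonadectomy effects). Without libraries 49 to 54 they were Pdgfb 0.0092 and Rgs5 −0.082 (difference of the AngII effects), Rgs5 0.014 (Ovx against Ctrl), Pdgfrb −0.0009 and Rgs5 −0.068 (Ovx + AngII against Ctrl + AngII), Pdgfc 0.072 (male Gx against male Ctrl), and Cspg4 −0.014 and Mcam −0.039 (male Ctrl against Ctrl). With equal sums it was Pdgfb −0.0085 (male Ctrl against Ctrl).

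With a library left out, the values that changed sign ran, in Ctrl + AngII against Ctrl, from −0.028 to 0.16 for Mcam, −0.024 to 0.12 for Pdgfra and −0.040 to 0.10 for Pdgfb, in Ovx + AngII against Ovx, from −0.052 to 0.079 for Pdgfa, −0.070 to 0.077 for Pdgfb, −0.022 to 0.082 for Pdgfrb and −0.027 to 0.050 for Pdgfra, and in their difference, from −0.11 to 0.058 for Pdgfb and −0.10 to 0.047 for Pdgfra. In Ovx against Ctrl they ran from −0.11 to 0.015 for Rgs5 and −0.054 to 0.13 for Mcam, and in Ovx + AngII against Ctrl + AngII from −0.089 to 0.12 for Pdgfa, −0.012 to 0.13 for Pdgfb, −0.078 to 0.11 for Cspg4, −0.017 to 0.095 for Rgs5 and −0.062 to 0.014 for Notch3. In male Gx against male Ctrl they ran from −0.033 to 0.059 for Pdgfrb, −0.28 to 0.040 for Pdgfc and −0.10 to 0.027 for Pdgfra, in male Ctrl against Ctrl from −0.10 to 0.021 for Pdgfra, −0.080 to 0.13 for Mcam, −0.021 to 0.064 for Pdgfb and −0.079 to 0.13 for Cspg4, and in the difference of the gonadectomy effects from −0.079 to 0.069 for Pdgfb.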

Other observations

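Mcam was higher in the library numbered 49 to 54 than in the mean of the other 3 libraries in 6 of 6 groups, by 0.03 to 0.48 on the log2 scale (mean 0.21). For the other 9 members this held in 2 to 5 of the 6 groups, with mean differences of −0.09 to 0.11. The labels do not say what sets these libraries apart.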
